A study of Rattus norvegicus with 89 samples.

Results

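Kidney gene expression was compared between rats given valproic acid for 5 days and rats given saline for 5 days. The comparison rests on 11 kidney samples, each from a different rat and read on 1 array, out of 89 samples in the whole series. They were chosen by their labels alone: 6 rats of the valproic acid day 5 group (females 7F158, 7F159 and 7F160, males 7M58, 7M59 and 7M60) and 5 rats of the saline day 5 group (females 1F105 and 1F106, males 1M4, 1M5 and 1M6). The rats of both groups were Crl:CD(SD) Sprague-Dawley animals of 7 to 8 weeks, housed singly and dosed daily after 6 days of acclimation. The labels carry no mutation, transgene or surgery, and they give neither the doses nor the hour of sampling. The label of saline male 1M4 leaves its treatment text empty, and its title places it in the group. Saline female 1F104 is titled day 1 although its animal number stands next to the day 5 females, and it was left out here. The series as a whole set 7 treatments, saline among them, beside untreated (naive) rats, after 1 or 5 days of dosing. They are called nephrotoxicants or controls, without saying which of the compounds were controls. A portion of the apical part of both kidneys of a rat was homogenised together, so a lower signal can come from fewer cells of a type or from less RNA per cell, and these cannot be told apart.

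Valproic acid is a branched short-chain fatty acid used against seizures. It inhibits histone deacetylases, the enzymes that take acetyl groups off histone tails, so that chromatin becomes more acetylated and the transcription of many genes shifts. It is also joined to coenzyme A and carnitine like a natural fatty acid and can impair fatty acid oxidation in mitochondria. The kidney's proximal tubule cells depend on that oxidation for energy, and tubular dysfunction is a known but uncommon effect of the drug. Several of the genes that stood out here belong to the circadian clock, a loop in which BMAL1 pairs with CLOCK or NPAS2 and switches on Per, Cry, Nr1d and Dbp genes. PER and CRY proteins then inhibit that pair, and the NR1D (REV-ERB) receptors repress Bmal1 and Npas2 through short elements named RORE. The levels of these genes swing over the day in the kidney.

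No gene passed the test between the groups (0 of 11415 genes, 0%, at an adjusted p under 0.05 by limma with Benjamini-Hochberg adjustment; the lowest adjusted p was 0.0847). At an unadjusted p under 0.05 there were 756 genes, where 571 would be counted if no gene differed: 310 were higher with valproic acid (2.72%) and 446 lower (3.91%). The signals of the 6 treated rats lay wholly above those of the 5 saline rats for 18 genes (0.158%) and wholly below for 24 genes (0.21%). Because nothing passed, the values from these 11 arrays are given as higher or lower signals and not as changes. When the spread was estimated from all 89 arrays, the same comparison called 17 genes, of which 4 rose (0.035%) and 13 fell (0.114%). These 17 genes, the clock, chaperone and histone genes among them, and the 12 genes with the smallest p in each direction are described one by one.

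Promoter sequences are shown for 5 genes that stand for the 3 groups of genes the results turn on: Bmal1 and Per2 of the clock, the chaperone gene Hsph1, and the histone genes H2ac25 and H4f3. Each runs from 250 bases before to 50 bases after the annotated start, 5′ to 3′ along the gene, from RefSeq on assembly GRCr8. Capitals mark the motif named with each gene, searched on both strands.

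In Bmal1, chr1:176766078-176766377 on the plus strand, the capitals mark a RORE, TAGGTCA, the element through which NR1D receptors repress the gene; its first base lies at -16 from the start, and the motif is in 2.63% of 33469 rat promoters of this length.
Bmal1: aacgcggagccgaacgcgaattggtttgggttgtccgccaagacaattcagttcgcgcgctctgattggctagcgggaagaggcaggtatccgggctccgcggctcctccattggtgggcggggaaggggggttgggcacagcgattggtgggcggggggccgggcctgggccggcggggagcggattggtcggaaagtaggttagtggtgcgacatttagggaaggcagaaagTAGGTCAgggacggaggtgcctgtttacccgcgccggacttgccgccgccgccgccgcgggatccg

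In Per2, chr9:99496944-99497243 on the minus strand, the capitals mark a D-box, TTATGTAA, the kind of element bound by DBP and by its antagonist NFIL3; it begins at -192, and 0.893% of the promoters hold it.
Per2: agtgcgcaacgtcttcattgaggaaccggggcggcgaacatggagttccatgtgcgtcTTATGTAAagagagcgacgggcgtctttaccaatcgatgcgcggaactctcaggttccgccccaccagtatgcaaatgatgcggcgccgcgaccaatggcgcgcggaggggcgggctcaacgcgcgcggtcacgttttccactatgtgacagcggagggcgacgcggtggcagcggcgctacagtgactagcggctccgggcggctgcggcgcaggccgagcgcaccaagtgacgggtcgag

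In Hsph1, chr12:10427118-10427417 on the plus strand, the capitals mark a heat shock element, GAANNTTC, which begins at -31 and is in 8.59% of the promoters; an E-box, CACGTG, the element of the BMAL1 pair, begins at -70 and is in 6.42%.
Hsph1: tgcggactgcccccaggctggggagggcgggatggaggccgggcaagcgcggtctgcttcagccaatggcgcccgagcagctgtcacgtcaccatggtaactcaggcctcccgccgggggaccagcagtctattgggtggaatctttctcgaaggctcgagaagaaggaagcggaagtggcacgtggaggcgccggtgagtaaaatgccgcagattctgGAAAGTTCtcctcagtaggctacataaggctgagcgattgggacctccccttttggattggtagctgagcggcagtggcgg

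In H2ac25, chr10:44233033-44233332 on the plus strand, the capitals mark 3 CCAAT boxes, at -131 and -121 on the opposite strand and at -113 on the gene's strand; CCAAT is in 37.5% of the promoters, and no TATAAA was found in this window.
H2ac25: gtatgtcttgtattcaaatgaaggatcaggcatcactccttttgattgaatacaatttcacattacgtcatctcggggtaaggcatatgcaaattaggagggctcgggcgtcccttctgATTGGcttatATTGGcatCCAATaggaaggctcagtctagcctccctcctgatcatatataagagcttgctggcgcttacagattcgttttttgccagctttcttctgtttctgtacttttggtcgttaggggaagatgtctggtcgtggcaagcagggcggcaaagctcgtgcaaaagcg

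In H4f3, chr17:41980292-41980591 on the minus strand, the capitals mark a CCAAT box at -73 and a TATA box, TATAAA, at -48; the latter is in 14.2% of the promoters.
H4f3: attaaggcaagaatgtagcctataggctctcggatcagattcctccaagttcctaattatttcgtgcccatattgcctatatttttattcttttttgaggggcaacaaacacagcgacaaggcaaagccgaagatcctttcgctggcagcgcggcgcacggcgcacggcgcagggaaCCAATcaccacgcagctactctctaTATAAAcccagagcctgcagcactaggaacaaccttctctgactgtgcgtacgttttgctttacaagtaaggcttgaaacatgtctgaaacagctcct

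A match is a run of letters and not a shown binding site. CCAAT is not particular to the histone genes: it was left unmarked in Bmal1, Hsph1 and Per2, with 5, 4 and 2 matches. No RORE, D-box, heat shock element, E-box or TATA box in these letters was found in the same window of Dbp, Npas2, Nr1d2, Per3, Usp2, Rnf125, Scg5 or Dnaja4, which says only that the letters are not in those 300 bases.

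The samples carried the RNA of the nephron. Markers of the proximal tubule (Slc34a1, Lrp2, Cubn, Slc5a2), loop of Henle (Umod, Slc12a1), distal tubule (Slc12a3, Calb1), collecting duct (Aqp2, Scnn1g), podocyte (Podxl) and endothelium (Pecam1, Kdr) all read above the limit for dim genes, a scaled signal of 33.2, on all 11 arrays. The lymphocyte genes Cd3e and Cd79b and the adrenal genes Cyp11b1 and Star read below it on all 11. Saline female 1F106 stood apart in RNA quality: its 3′ to 5′ signal ratio was 2.99 for GAPDH and 10.5 for actin, and its trimmed mean signal of 116.5 was the lowest of the 11. Treated female 7F160 had ratios of 2.05 and 7.47. Among the pairs within these 11 arrays the rank correlation ran from 0.916 to 0.987, and no pair was identical. Without 1F106 and 7F160 the comparison called 2 genes, H2ac25 and Hsph1, both lower, as it did without 1F106 alone. Per-gene saline signals below are listed in the order 1F105, 1F106, 1M4, 1M5, 1M6, in scaled signal units, and the Affymetrix probe set read for a gene stands in brackets after its symbol. A difference is a mean log2(signal + 16) difference, valproic acid minus saline, with its standard error.

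Clock genes held several of the largest differences, with the activators Npas2 and Bmal1 lower and Dbp and the Per genes higher. Npas2 (1383439_at), the partner of BMAL1, read 137.6, 172, 219, 121.4 and 130.1 in the saline rats and from 15.1 to 118 with a median of 43.9 in the treated rats. Every treated rat lay below every saline rat, by a narrow margin between treated female 7F158 at 118 and saline male 1M5 at 121.4, and the 3 treated males, at 18.99, 33.2 and 15.1, were lowest, with 7M58 and 7M60 below the limit of 33.2. The difference was -1.51 ± 0.28 (adjusted p = 0.207). With the spread of all 89 arrays it fell by 1.48 ± 0.23 (adjusted p = 0.00019), and it was called again in each of 11 repeats with 1 rat left out.

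Bmal1 (1370510_a_at), the core activator whose promoter is shown above, read 79.5, 57.9, 100.3, 123.7 and 78.8 with saline and from 16.8 to 80.5 with a median of 29.7 with valproic acid. The groups overlapped through treated female 7F158, which read 80.5, while the other 5 treated rats lay below every saline rat and the 3 males below the limit of 33.2. The difference was -1.07 ± 0.25 (adjusted p = 0.352). On all 89 arrays it fell by 1.06 ± 0.25 (adjusted p = 0.0473), and it was called in 4 of the 11 repeats with 1 rat left out. Clock, the alternative partner of BMAL1, differed by -0.21 ± 0.12, with treated signals of 256 to 313 that overlapped the saline span of 259 to 436.

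Several genes that the BMAL1 pair switches on were higher. Dbp (1387874_at), a D-box activator and one of the strongest cycling transcripts of the kidney, read 415, 129.1, 228, 179 and 450.4 with saline and from 414 to 984 with a median of 545 with valproic acid. The saline rats split, with 1F105 and 1M6 near the treated females and the other 3 far below. The difference was 1.23 ± 0.29 (adjusted p = 0.352), and Dbp rose in the fit on 89 arrays by 1.22 ± 0.27 (adjusted p = 0.0387; called in 5 of 11 repeats). Nr1d2, the repressor REV-ERB beta, read 1014, 383, 628, 749 and 866 with saline and from 965 to 1292 with a median of 1057 with treatment; it rose by 0.65 ± 0.15 in that fit (adjusted p = 0.0473; called in 2 of 11 repeats).

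Per2 (1368303_at), an inhibitor of the BMAL1 pair, read 239, 112.6, 252, 193 and 338 with saline and from 198 to 661 with a median of 436 with valproic acid. The 3 treated males, at 607, 661 and 611, were above every other rat, and the treated females lay among the saline rats. The difference was 0.91 ± 0.20 (adjusted p = 0.352). Per1 was 1.31 and Per3 0.97 log2 units higher, with adjusted p-values of 0.405 and 0.46. Usp2, a ubiquitin protease under clock control, was higher by 0.97 ± 0.24 (adjusted p = 0.365), again with the 3 males, at 857 to 963, above all others. Nfil3, the repressor that opposes DBP at D-boxes, read 56.3, 124.8, 75.5, 52.6 and 41 with saline and from 13.6 to 44.6 with a median of 33.9 with treatment, a difference of -0.84 ± 0.21 (adjusted p = 0.365). Noct, a clock-controlled phosphatase gene, was higher by 0.58 ± 0.13 (adjusted p = 0.352), and Nr1d1 by 0.27 ± 0.17 (adjusted p = 0.867). Cry1 and Hlf differed by 0.04 and 0.13 with overlapping groups.

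Of the 18 clock genes tested, 14 were higher and 4 lower. At an unadjusted p under 0.05, 7 were higher and 3 lower, against 2.72% and 3.91% of all genes. The list's median difference was 0.25 log2, where all 11415 genes had a median of 0.00. With unscaled signals the clock list still split 14 to 4, while the median of all genes became 0.09 and 8666 genes were higher against 2965 lower. Unscaled splits are therefore given below beside the scaled ones where they moved by more than 10 points. Time of day was not in the labels, so the hour at which each group was sampled and the treatment cannot be told apart for these genes.

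**Figure D1:**
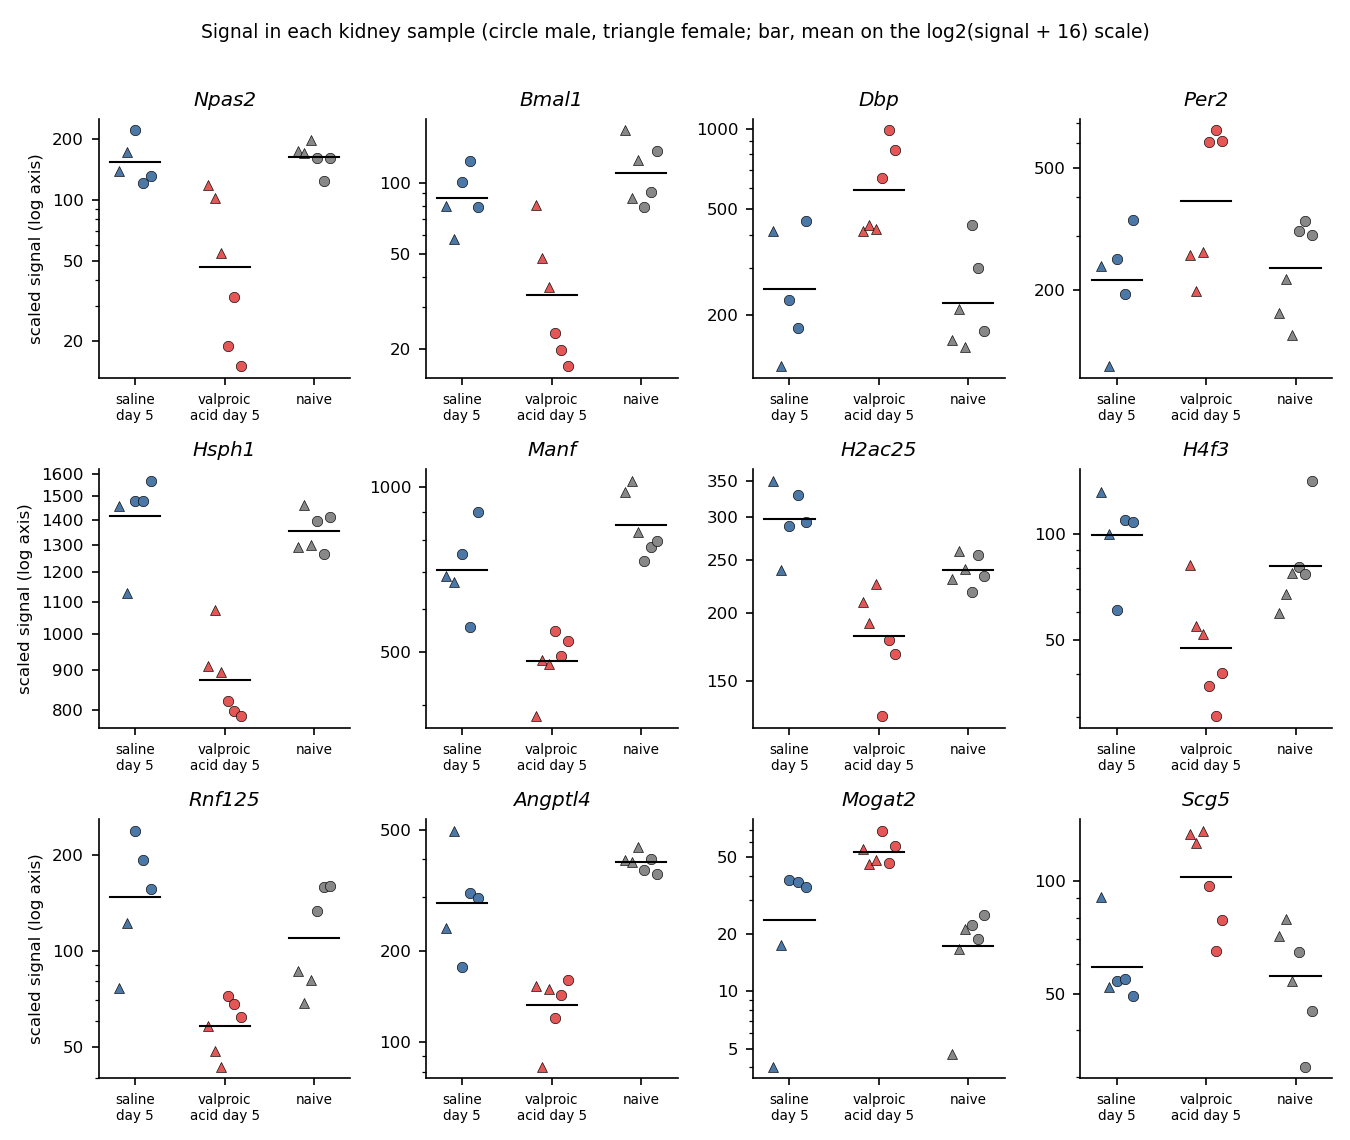
Scaled signal of 12 genes in each kidney sample on a log axis, with saline day 5 (5 rats), valproic acid day 5 (6 rats) and naive (6 rats) side by side; circles are males, triangles are females and the bar is the group mean on the log2(signal + 16) scale. All 6 treated rats lie below all saline rats for Npas2, Hsph1, Manf, H2ac25, Rnf125 and Angptl4, and above them for Mogat2, while Bmal1, Dbp, Per2, H4f3 and Scg5 overlap.

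Chaperone genes were the second group. Hsph1 (1388898_at), the large HSP110 partner of HSP70, read 1459, 1128, 1478, 1481 and 1570.2 with saline and from 785 to 1073 with a median of 858 with valproic acid. All treated rats were below all saline rats, and the nearest pair was treated 7F159 at 1073 and saline 1F106 at 1128. The difference was -0.69 ± 0.11 (adjusted p = 0.0888). On all 89 arrays Hsph1 fell by 0.69 ± 0.14 (adjusted p = 0.00815; called in 8 of 11 repeats).

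Dnaja4, an HSP40 co-chaperone, differs between the sexes, and the difference was seen within each. Females read 309 and 344 with saline against 263, 248 and 282 with valproic acid. Males read 736, 603 and 743 with saline against 516, 505 and 420.5. In each sex the groups did not overlap, and on all 89 arrays Dnaja4 fell by 0.41 ± 0.08 (adjusted p = 0.00815; called in 8 of 11 repeats).

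Of 15 heat shock response genes tested, 12 were lower and 3 higher, with a median of -0.10; with unscaled signals 8 were lower and 7 higher. At an unadjusted p under 0.05, 6 were lower: Hsph1, the small heat shock protein Hspb1 (-0.48 ± 0.12), the HSP90 activator Ahsa1 (-0.34 ± 0.10), the collagen chaperone Serpinh1 (-0.35 ± 0.12), the HSP70 to HSP90 adaptor Stip1 (-0.29 ± 0.10) and the HSP90 partner Fkbp4 (-0.27 ± 0.09). The inducible Hspa1a (0.26 ± 0.11) and its co-chaperone Dnajb1 (0.22 ± 0.09) were the 2 that were higher at that limit. The members thus did not all differ in the same direction.

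Manf, Hspa5 and Creld2, which serve protein folding in the endoplasmic reticulum, had lower signals, while the wider ER stress list below was split. Manf (1372352_at), a secreted factor of the unfolded protein response, read 687, 670.3, 754, 555 and 898 with saline and from 382 to 546 with a median of 487 with valproic acid, with no overlap (-0.52 ± 0.12, adjusted p = 0.352). Hspa5, the master chaperone BiP, read 2947, 2790.0, 3016, 3629 and 4650.4 with saline and from 2108 to 2605 with a median of 2402 with treatment, again with no overlap (-0.48 ± 0.11, adjusted p = 0.356). Creld2, a disulfide isomerase, was lower as well (-0.40 ± 0.11, adjusted p = 0.405). The wider list of 27 ER stress and integrated stress response genes split into 11 higher and 16 lower with a median of -0.03 (17 higher and 10 lower unscaled, median 0.06), with 3 higher and 4 lower at an unadjusted p under 0.05. Its higher members were Ddit4, an inhibitor of mTOR (0.63 ± 0.18), Herpud1 of ER-associated degradation (0.38 ± 0.11) and the asparagine synthetase Asns (0.32 ± 0.13).

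Histone genes formed the third group. H2ac25 (1371765_at), which encodes a core histone H2A, read 350.1, 239.5, 288, 329 and 294 with saline and from 129.04 to 226 with a median of 185 with valproic acid, with no overlap. The difference was -0.69 ± 0.13 (adjusted p = 0.207), and H2ac25 fell by 0.68 ± 0.12 on 89 arrays (adjusted p = 0.000333), a call made in all 11 repeats. H4f3 (1382173_at), whose older symbol Hist1h1d is that of a linker histone H1 gene, read 132.1, 99.97, 60.8, 109.5 and 109 with saline and from 30.2 to 81.5 with a median of 46.01 with treatment. Saline male 1M4 lay inside the treated range. The difference was -0.91 ± 0.16 (adjusted p = 0.172), and on 89 arrays it fell by 0.89 ± 0.21 (adjusted p = 0.0473; called in 3 of 11 repeats).

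H1f2, another linker histone, read 3477, 4361, 2058, 2901 and 2213 with saline and from 1021 to 3464 with a median of 2093 with treatment (-0.72 ± 0.15, adjusted p = 0.339). Its treated males, at 1021, 1307 and 1107, were below every other rat, while the treated females overlapped the saline group. Hist2h2be, a histone H2B gene, was lower as well (-0.54 ± 0.13, adjusted p = 0.352). All 13 histone genes tested were lower with valproic acid, 6 of them at an unadjusted p under 0.05, with a median of -0.36; with unscaled signals 12 were lower and 1 higher. The list was collected after the leading genes had been seen, so its count is no independent evidence. The saline rats were themselves above naive rats for these genes, by a median of 0.24, and the median of valproic acid against naive rats was -0.18. The list mean was also taken in each rat as a log2 difference from saline rats of its sex. Naive females ran from -0.42 to -0.27 and treated females from -0.45 to -0.26. Naive males ran from -0.13 to -0.02 and treated males from -0.47 to -0.42. Histone gene copies resemble each other closely, so probe sets of one may read another.

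Rnf125 (1384098_at), a ubiquitin ligase that limits antiviral RIG-I signalling, had the smallest p. It read 76.4, 122.2, 238, 193 and 156.3 with saline and from 43.3 to 72.1 with a median of 60.02 with valproic acid. Every treated rat lay below every saline rat, and the closest saline rat was female 1F105. The difference was -1.09 ± 0.15 (adjusted p = 0.0847). On 89 arrays it fell by 1.08 ± 0.18 (adjusted p = 0.000333), and was called in all 11 repeats.

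Dusp23 (1374379_at), a small dual-specificity phosphatase, read 112.8, 192, 176, 162 and 178 with saline and from 70.4 to 107 with a median of 84.3 with valproic acid, with no overlap (-0.81 ± 0.12, adjusted p = 0.0888). Naive rats read from 40.6 to 127 with a median of 66.7, like the treated rats, and the saline rats exceeded them by 1.06 log2 units. Against naive rats the difference turned to 0.24 ± 0.18 (adjusted p = 0.567). The saline group therefore stood above both other groups for this gene.

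Cyp26b1 (1384392_at), which breaks down retinoic acid, read 219, 329.5, 235, 202 and 246 with saline and from 62.7 to 183.4 with a median of 126 with valproic acid, with no overlap. The difference was -1.0 ± 0.18 (adjusted p = 0.172); on 89 arrays Cyp26b1 fell by 0.99 ± 0.23 (adjusted p = 0.0487; called in 2 of 11 repeats). Angptl4 (1388924_at), a PPAR target that inhibits lipoprotein lipase, read 238, 496, 176, 309.9 and 298 with saline and from 83.1 to 160.4 with a median of 145.9 with treatment, with no overlap (-1.04 ± 0.22, adjusted p = 0.349). Naive rats read higher still, from 357 to 439 with a median of 395.

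The remaining genes with the smallest p on the lower side were Klhdc7a, a kelch domain gene (-0.58 ± 0.12), Ccdc141, a coiled-coil gene (-0.54 ± 0.11), and Spns2, the exporter of sphingosine-1-phosphate (-0.69 ± 0.15). Klhdc7a and Ccdc141 did not overlap between the groups, with treated signals of 259 to 377 and 234 to 332 against 394 to 567 and 352 to 481 with saline. Each of the 3 had an adjusted p of 0.349.

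On the higher side, Mogat2 (1383979_at), which re-esterifies monoacylglycerol, read 4.03, 17.5, 37.96, 37.2 and 34.9 with saline and from 46.3 to 69.1 with a median of 51.9 with valproic acid, with no overlap. It was a dim gene, above the limit of 33.2 in 3 of 5 saline rats and in all 6 treated rats. The difference was 0.86 ± 0.19 (adjusted p = 0.349); on 89 arrays it rose by 0.83 ± 0.20 (adjusted p = 0.0473; called in 1 of 11 repeats). Scg5 (1367992_at), the 7B2 chaperone of prohormone convertase PC2, read 90.5, 52.1, 54.1, 55 and 49.5 with saline and from 65.1 to 136 with a median of 111.5 with treatment, and rose on 89 arrays by 0.63 ± 0.14 (adjusted p = 0.0387; called in 3 of 11 repeats). Only saline female 1F105 reached the treated range. Tmem151a was below the limit in all 5 saline rats and above it in 5 of 6 treated rats, which bounds it at at least 1.04-fold higher (adjusted p = 0.339).

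Clu, the secreted chaperone clusterin that is used as a marker of tubular injury, read 850.0, 799.7, 465, 431 and 543 with saline and from 618 to 1644 with a median of 1113 with valproic acid (0.77 ± 0.18, adjusted p = 0.352). Within each sex the treated rats were above the saline rats. The saline group had the lowest mean log2 level of Clu among all groups of the series, at 9.25 against 10.08 with valproic acid. Naive rats had 9.66 and saline rats of day 1 had 9.62. Tob2, an antiproliferative adaptor of mRNA decay, read 201 to 231 with saline and 258 to 402 with treatment, with no overlap (0.53 ± 0.12). Oas1a, an interferon-induced enzyme, read 23.5 to 55.02 and 56.7 to 97.5, also with no overlap (0.67 ± 0.16). Tmem252, a membrane protein gene (0.56 ± 0.13), and Mep1b, a brush border protease of the proximal tubule (0.29 ± 0.07), completed the 12, with adjusted p-values of 0.352 and 0.352.

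The other genes that fell in the fit on 89 arrays were moderate in size. Hnrnpc, an abundant RNA-binding protein gene, read 1381, 1549, 1562, 1513 and 1501 with saline and from 1062 to 1369 with a median of 1179.7 with treatment, with no overlap, and fell by 0.33 ± 0.07 (adjusted p = 0.0071; called in 10 of 11 repeats). Ndrg1, a stress-responsive gene of the distal nephron, read 3662, 5339, 5407, 5260.1 and 5275 with saline and from 3225 to 3873 with a median of 3712 with treatment. Apart from 1F105 the saline rats lay above all treated rats, and it fell by 0.42 ± 0.10 (adjusted p = 0.0487). The carrier gene Slc35f2 fell by 0.48 ± 0.11, the cell cycle regulator Cdk2ap2 by 0.42 ± 0.09 and the adaptor gene Sh3tc1 by 0.42 ± 0.10, and each of these and Ndrg1 was called in 3 of 11 repeats.

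Of the 17 calls, 8 had groups that did not overlap. Over all 11415 genes the shares were 0.158% with valproic acid higher and 0.21% lower. The 17 were chosen by their difference in these same rats, so that count is no independent evidence. The number of calls was 33 without 1F105 and 29 without 7F159. It was 7 without 1F106 or 7M59, 6 without 1M6 or 7M58, 5 without 1M5 or 7M60 and 4 without 1M4. With unscaled signals it was 1, Npas2, and with no filter on dim genes 9. In the fit on the 11 arrays alone, leaving out 1F105 called 7 genes: Per2, Per3, Dbp and Nr1d2 higher and Ndrg1, Dusp23 and Rnf125 lower.

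**Figure D2:**
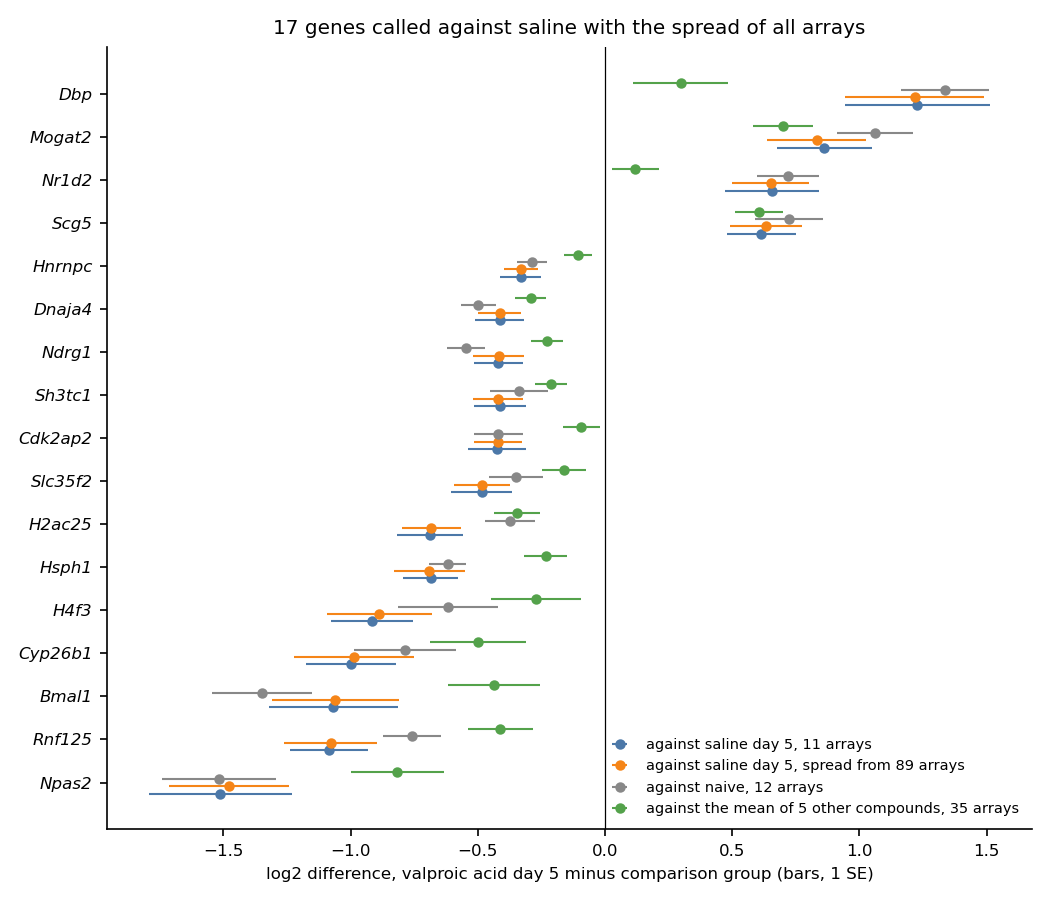
Log2 difference of valproic acid day 5 from 4 comparison groups for the 17 genes called on all 89 arrays, with bars of 1 SE; the groups are saline day 5 (11 arrays, and again with the spread of 89 arrays), naive rats (12 arrays) and the mean of 5 other compounds (35 arrays). The estimates keep their side of 0 in all 4 for each gene and lie nearest to 0 for Cdk2ap2, Hnrnpc and Nr1d2 against the other compounds. The same treated rats enter all 4, and the genes were chosen by their difference from saline. The shared side of 0 is therefore no independent evidence.

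The direct targets of the drug had small differences at the RNA level. Of 10 histone deacetylase genes tested, 7 were higher and 3 lower, none at an unadjusted p under 0.05, with a median of 0.02. The split was 9 to 1 with unscaled signals and 5 to 5 after quantile normalization. Hdac1 read 164, 181.4, 178, 187 and 179.9 with saline and from 187 to 222 with a median of 198 with valproic acid, with no overlap (0.17 ± 0.08, adjusted p = 0.795), but naive rats read from 157.9 to 255 with a median of 211. Hdac2 and Hdac3, the other abundant class I enzymes, differed by -0.05 ± 0.07 and 0.03 ± 0.08. Hdac6, the tubulin deacetylase, differed by 0.24 ± 0.15 and Hdac11 by -0.14 ± 0.10. The 15 deacetylase complex genes and the 14 acetyltransferase and reader genes had medians of 0.01 and 0.07, and none had an unadjusted p under 0.05.

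Genes known to respond to deacetylase inhibitors in cultured cells were split in direction: 6 of 11 were higher (10 of 11 unscaled), with a median of 0.04, and those at an unadjusted p under 0.05 were Clu and Hspa1a. Cdkn1a, which encodes the p21 inhibitor of the cell cycle, read 77.3, 137.4, 57.7, 83.1 and 65.0 with saline and from 53.7 to 110.7 with a median of 85.6 with valproic acid, a difference of -0.01 ± 0.14. H1f0, another common response gene, had no probe set named for it. Of 15 p53 target genes none had an unadjusted p under 0.05 (median 0.02).

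Of 26 tubular injury genes tested, 13 were higher and 13 lower (15 and 11 unscaled), with a median of 0.00. At an unadjusted p under 0.05, Clu was higher and 3 genes were lower. Havcr1, which encodes the injury molecule KIM-1, read 46.3, 26.9, 13.9, 28.1 and 35.1 with saline and from 9.54 to 25.6 with a median of 15.6 with valproic acid. It was above the dim limit in 2 saline rats and in no treated rat (-0.48 ± 0.20, adjusted p = 0.716). Lcn2, the NGAL marker, and Hmox1, heme oxygenase, differed by -0.01 ± 0.20 and 0.04 ± 0.19 with overlapping groups. Sox4, a developmental factor re-expressed in damaged tubules, was lower (-0.43 ± 0.12), and so was the fibrinogen gene Fga (-0.53 ± 0.21).

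Of 18 genes of fatty acid and triglyceride synthesis, 15 were lower (median -0.20; 13 lower with unscaled signals). At an unadjusted p under 0.05, 6 were lower and 1 higher: Thrsp, a lipogenic regulator (-0.88 ± 0.27), the desaturases Fads1 (-0.47) and Fads2 (-0.36), Elovl5 (-0.20), and the transcription factors Mlxipl (-0.32) and Srebf1 (-0.39) lower, and the elongase Elovl6 (0.38) higher. Among 19 PPARA target and peroxisomal genes 14 were lower (median -0.08; 6 lower and 13 higher unscaled), with Angptl4, the lipid droplet coat Plin2 (-0.41 ± 0.10) and Pdk4, a brake on pyruvate oxidation (-0.68 ± 0.22), leading. Dhcr7, the last enzyme of cholesterol synthesis, differed by -0.69 ± 0.15 (adjusted p = 0.349), while the 19 genes of that pathway had a median of 0.00.

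Genes of the pathways that handle valproic acid itself had list medians within 0.1 of 0 against saline. The 20 genes of mitochondrial fatty acid oxidation had a median of -0.03 and none had an unadjusted p under 0.05. Cpt1a, the entry step for long-chain fatty acids, differed by 0.18 ± 0.09. The 38 respiratory chain genes had a median of 0.01, again with none at that limit. The 12 acyl-CoA and glycine conjugation genes had a median of -0.097, and 9 were lower (6 unscaled). The acetyl-CoA synthetase Acss1 (-0.25 ± 0.08) and the thioesterase Acot7 (-0.41 ± 0.15) were lower at an unadjusted p under 0.05. Against naive rats the conjugation list had a median of -0.30 with 11 of 12 lower (8 unscaled). The fatty acid oxidation list had -0.10 there, with 15 of 20 lower (9 unscaled). Carnitine genes (7 tested) had a median of -0.05, branched-chain amino acid breakdown (20) 0.02, and the ammonia and urea cycle (14) -0.03.

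Interferon response genes were the list with the most members higher at an unadjusted p under 0.05. Of 23 tested, 21 were higher, 14 of them at that limit and none lower at it, with a median of 0.48. Isg15, a ubiquitin-like antiviral modifier, read 155.1, 108, 79.6, 102.3 and 156.4 with saline and from 152 to 336 with a median of 196 with valproic acid (0.69 ± 0.19, adjusted p = 0.405). Mx2, a dynamin-like antiviral GTPase, read 89.95, 50.7, 45.2, 34.2 and 134 and from 90.3 to 203 with a median of 145 (1.00 ± 0.28, adjusted p = 0.41). Mx1 and Irf7, the regulator of the response, differed by 0.76 ± 0.21 and 0.62 ± 0.22. The chemokine Cxcl10 differed by 0.84 ± 0.33 and the antiviral GTPase Irgm by 0.66 ± 0.23. Treated female 7F158 was the highest of all 11 rats for Isg15, Mx1, Mx2 and Irf7. None of the 23 was called on 89 arrays or against naive rats, the saline rats lay below naive rats by a median of 0.16, and the standard errors on 89 arrays were larger (0.66 ± 0.42 for Isg15). Antigen presentation genes had a median of 0.13 with 12 of 15 higher (14 unscaled), led by the peptide transporter Tap1 (0.59 ± 0.26). That list was high in treated male 7M60, whose mean score over its members was 1.22 above the saline males, against 0.0699 and 0.186 in the other 2 treated males and -0.441 to -0.0824 in the treated females.

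Genes of fibroblasts, adipocytes and red cells were mostly lower, whether signals were scaled or not. Of 17 fibroblast and matrix genes 14 were lower (median -0.24), 6 of them at an unadjusted p under 0.05, among them Col1a1 (-0.63 ± 0.28), Col3a1 (-0.55 ± 0.22), Lum (-0.61 ± 0.23) and the smooth muscle gene Tagln (-0.53 ± 0.18). The summed signal of these 17 genes ran from 6579 to 9936 with saline and from 5155 to 9522 with valproic acid. Of 7 adipocyte genes 6 were lower (median -0.59), led by Cfd (-1.57 ± 0.49), Plin1 (-1.13 ± 0.39) and Ucp1 (-1.89 ± 0.67). Their sums ran from 1753 to 3928 and from 2243 to 3102, and Plin1 was above the dim limit in 5 of the 11 rats. The adipocyte median was -0.21 in males and -1.07 in females, whose 2 saline controls include 1F106. Of 13 endothelial genes 10 were lower (median -0.07; 5 lower and 8 higher unscaled), with Eng, Kdr and Pecam1 at -0.39 ± 0.11, -0.36 ± 0.11 and -0.25 ± 0.10.

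Of 5 red cell genes 4 were lower (median -0.60), all at an unadjusted p under 0.05: Ahsp (-0.77 ± 0.22), Hba-a3 (-0.74 ± 0.24), Alas2 (-0.60 ± 0.22) and Hbb (-0.46 ± 0.19). The fifth, Slc4a1, which intercalated cells of the kidney also express, was higher by 0.37 ± 0.13. The red cell sum ran from 6003 to 7252 with saline and from 3273 to 7451 with treatment. The part of cell mixture in the differences above was not tested.

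Of 16 collecting duct genes 12 were higher (15 unscaled; median 0.15), with the sodium channel subunit Scnn1b (0.27 ± 0.09), Slc4a1 and the intercalated cell factor Foxi1 (0.32 ± 0.13) at an unadjusted p under 0.05. The 26 proximal tubule transporters had a median of -0.14, with 18 lower (14 unscaled) and the amino acid carrier Slc36a2 (-0.55 ± 0.21) the only one at that limit. The median was 0.04 in males and -0.33 in females, whose 2 saline controls include 1F106. Among 21 proximal tubule enzymes (median 0.00), the angiotensin converting enzyme Ace was higher (0.58 ± 0.15, adjusted p = 0.391) and the dipeptidase Dpep1 lower (-0.73 ± 0.28). Glucocorticoid response genes had a median of 0.11 over 12 genes, with Per1, Fkbp5 (0.61 ± 0.23) and Tsc22d3 (0.47 ± 0.19) higher and Angptl4 lower at an unadjusted p under 0.05. The median of the list was 0.41 in males and -0.05 in females. Macrophage genes (15, median 0.00) stood out in one animal, treated male 7M60, whose summed signal of 9899 compared with a highest of 4779 in the saline rats. Of the 47 lists, 33 had medians within 0.1 of 0.

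**Figure D3:**
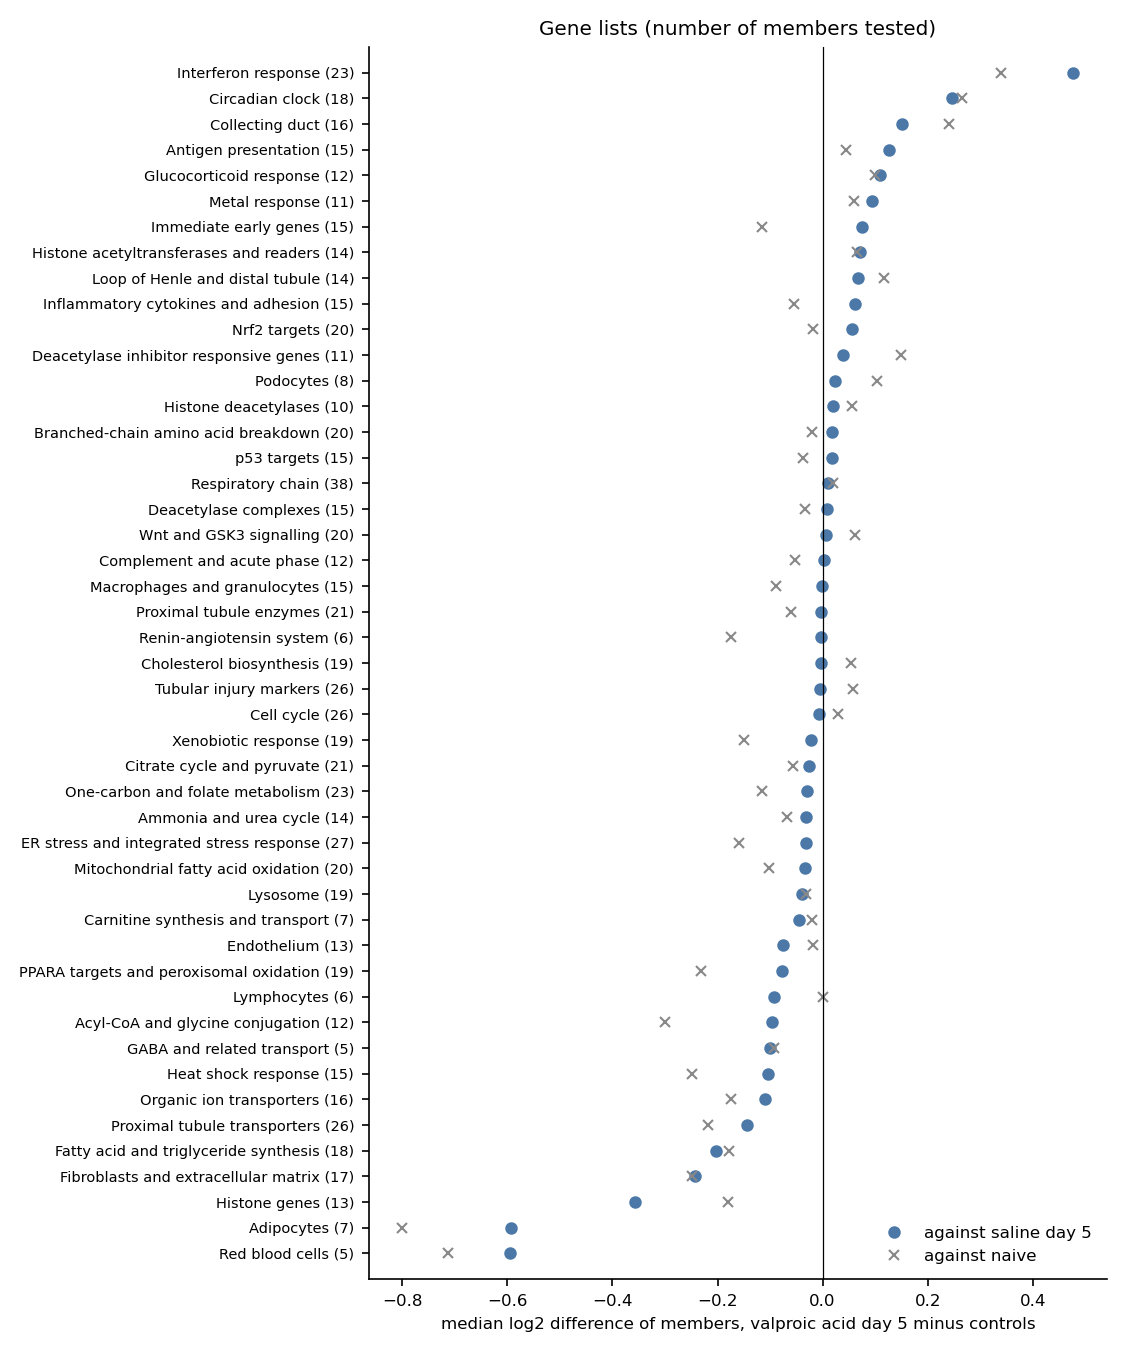
Median log2 difference of each gene list with 5 or more members tested, valproic acid day 5 against saline day 5 (circles) and against naive rats (crosses), with the number of members in brackets. The interferon list is highest at 0.48 and the red cell and adipocyte lists are lowest at -0.60 and -0.59, while most lists stay close to 0.

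**Figure D4:**
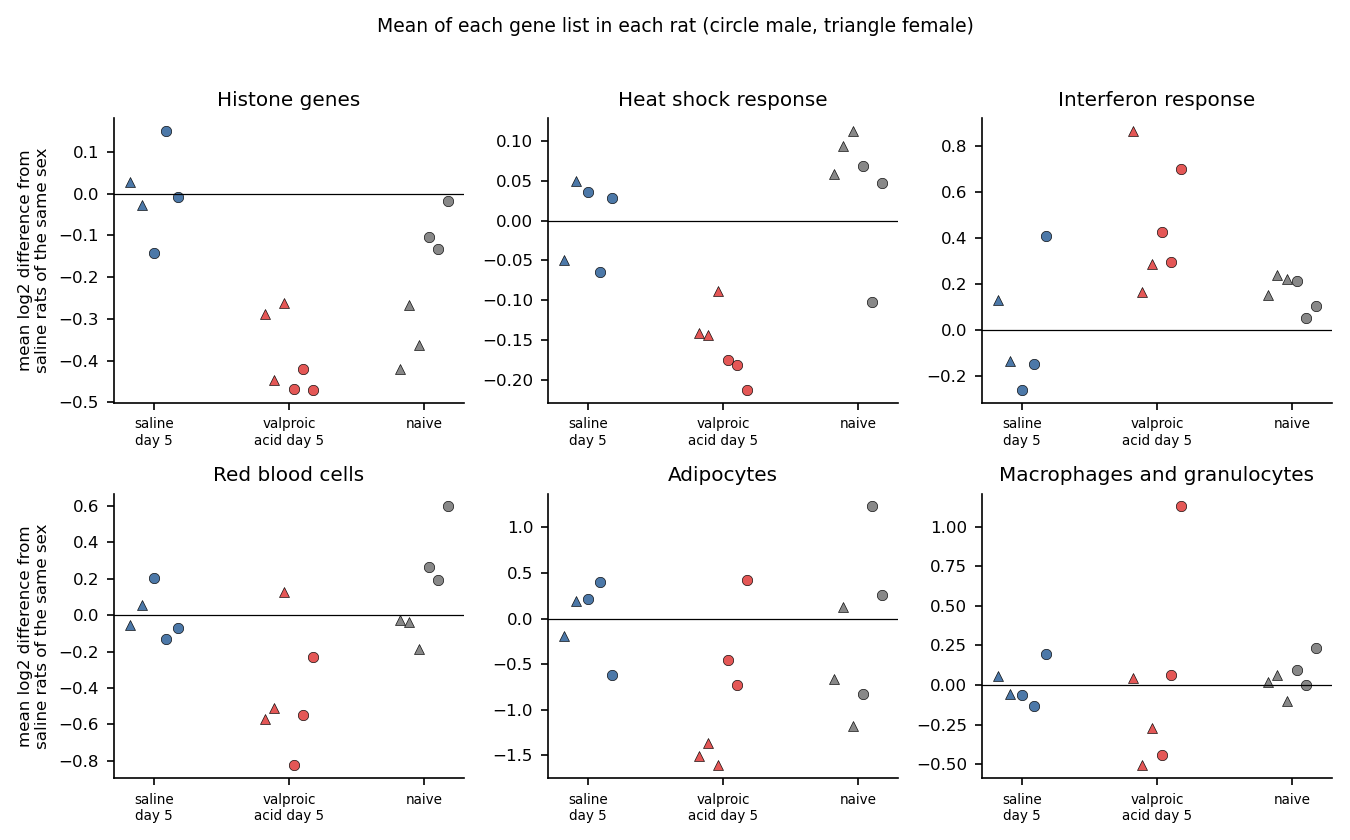
Mean over a list's members of the log2 difference from the saline rats of the same sex, for 6 lists and for each saline, valproic acid and naive rat; circles are males and triangles are females. The macrophage panel shows the single treated male 7M60 at 1.13 while the other treated rats lie between -0.508 and 0.0634.

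Naive rats gave a second control group that shares no rat with saline. They were untreated, so the drug and the dosing itself cannot be told apart in a difference from them. Saline day 5 against naive called no gene (0 of 11415, 0%; 675 at an unadjusted p under 0.05 by limma). Valproic acid against naive called 91 genes, of which 35 rose (0.307%) and 56 fell (0.491%). The treated rats are the same 6 as before, so the values are given side by side and not as a second test. The count moved with the rats: it was 497 without naive male 8M81, 37 without 8M83, 45 without 7M58, 48 without 8F181, 52 without 8F183 or 8M82 and 56 without 8F182. With unscaled signals it was 140, of which 100 rose and 40 fell, and the median of all genes was then 0.13 in place of 0.02.

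Slc16a1, the lactate and ketone carrier MCT1, read 252, 502, 341, 447 and 1137 with saline, from 97.3 to 334 with a median of 156.4 with valproic acid and from 296 to 1178 with a median of 795 in naive rats. Against naive rats it fell by 2.04 ± 0.35 (adjusted p = 0.0237). The difference from saline was -1.33 ± 0.32 and did not pass (adjusted p = 0.365). Against naive rats Angptl4 fell by 1.46 ± 0.13 (adjusted p = 0.000156), the lowest adjusted p of that comparison. The naive mean log2 level of Angptl4, 8.67, was the highest of all 15 groups. Saline rats had 8.01 at day 1 and 8.24 at day 5, and valproic acid rats 7.21 at day 5. Pdk4 fell by 1.21 ± 0.17 (adjusted p = 0.00599), and its saline median of 597 lay between a treated median of 303 and a naive one of 719. Plin2 fell by 0.58 ± 0.09 and G0s2, an inhibitor of lipolysis, by 0.61 ± 0.13.

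Several chaperones fell against naive rats. There Manf fell by 0.80 ± 0.10 (adjusted p = 0.00415), Hspa5 by 0.58 ± 0.08 (adjusted p = 0.00522) and Hsph1 by 0.62 ± 0.07 (adjusted p = 0.00275). Creld2, Fkbp4, Chordc1, Dnaja4, Serpinh1 and Stip1 fell as well, by between 0.42 and 0.60. Of the 15 heat shock genes 4 were called, all lower, and of the 27 ER stress genes 4, all lower.

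Among other genes called lower against naive rats were the serine pathway genes Psph (-0.80) and Psat1 (-0.47), the creatine enzyme Gatm (-0.70), Dhcr7 (-0.77), the thyroid hormone deiodinase Dio1 (-0.92) and the heme enzyme Alas2 (-1.02). On the rising side were the clock genes Dbp (1.34 ± 0.17, adjusted p = 0.00473), Usp2 (1.13), Nr1d2 (0.72) and Per2 (0.69). Ace rose by 1.00 ± 0.20 (adjusted p = 0.0386), Mogat2 by 1.06 ± 0.15 (adjusted p = 0.00577), Scg5 by 0.72, Foxi1 by 0.61 and the amino acid carrier Slc7a5 by 0.56. The cold-inducible RNA-binding genes Rbm3 and Cirbp rose by 0.66 and 0.55, where they differed from saline by 0.16 and 0.20. Against naive rats H2ac25 differed by -0.37 ± 0.10 and did not pass (adjusted p = 0.0894).

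The 6 valproic acid rats were then set against the equally weighted mean of 5 other compounds at day 5. These were gentamicin, tobramycin, cisplatin, cadmium and doxorubicin, in 29 rats. Their mean is no control for dosing alone, since a difference from it can come from either side. Called were 3 genes that rose (0.0263%) and none that fell (0%; 699 genes at an unadjusted p under 0.05 by limma in either direction), and without 7F158 the count was 5. Mogat2 was higher than the other compounds by 0.70 ± 0.12 (adjusted p = 0.00402), with a group mean signal of 53.9 ± 8.73 (SD, n = 6) that was the highest of all 15 groups. Scg5 was higher by 0.61 ± 0.09 (adjusted p = 0.00305), with a mean of 106.1 ± 30.2 (SD, n = 6), also the highest. Hbb was called at 0.89 ± 0.15, but the doxorubicin rats of day 5 read 68.3 ± 6.43 (SD, n = 5) where the means of the other 14 groups ran from 3666 to 5997, and valproic acid was at 3770.3 ± 1159 (SD, n = 6).

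The clock differences were smaller in value against the other compounds, and the gap was not tested. Dbp was 0.30 ± 0.19 and Nr1d2 0.12 ± 0.09 from their mean, Bmal1 -0.44 ± 0.18 and Npas2 -0.82 ± 0.18, with adjusted p-values from 0.149 to 0.918. The animal codes begin with a digit for the treatment, from 1 for saline to 7 for valproic acid and 8 for naive rats. Over the 7 dosed groups the means of Dbp and Npas2 ran broadly along that digit, while the naive rats lay near the saline end. At day 5 the mean log2 level of Dbp was 8.07 with saline, 8.22 with gentamicin, 8.72 with cisplatin, 8.70 with tobramycin, 9.43 with cadmium, 9.55 with doxorubicin and 9.24 with valproic acid. At day 1 the same order gave 7.32, 7.77, 8.22, 8.49, 8.76, 8.96 and 9.02. Naive rats had 7.90. Nr1d1 did not run along the digit to its end at day 5, with 7.73 for saline, 8.74 for doxorubicin and 8.00 for valproic acid.

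Npas2 ran the other way at day 5, from 7.40 with saline through 7.26, 7.04, 6.91, 6.48 and 6.29 to 5.97, and was 7.48 in naive rats. Hsph1 went from 10.48 to 9.76 with doxorubicin and 9.80 with valproic acid, and Rnf125 from 7.35 to 6.34 and 6.21. In the same order Angptl4 ran from 8.24 through 8.03, 8.20, 7.85, 7.65 and 7.39 to 7.21. Dnaja4 ran from 9.05 through 8.91, 8.80, 8.85, 8.81 and 8.70 to 8.54. Cdk2ap2 went from 10.13 to 9.67 with doxorubicin and 9.70 with valproic acid. Cyp26b1 did not run along the digit, with 8.02 for saline, 7.86 for cadmium and 7.06 for valproic acid. Among the dosed groups, saline and valproic acid hold the first and the last of these digits. For genes that run along the digit, the treatment and the place in that order therefore cannot be told apart. Whether the order reflects the hour or sequence of sampling was not tested, since the labels give neither. Mogat2 and Scg5 did not follow the digit: their day 5 means before valproic acid lay between 5.27 and 5.61 and between 6.20 and 6.57, against 6.12 and 6.89.

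**Figure D5:**
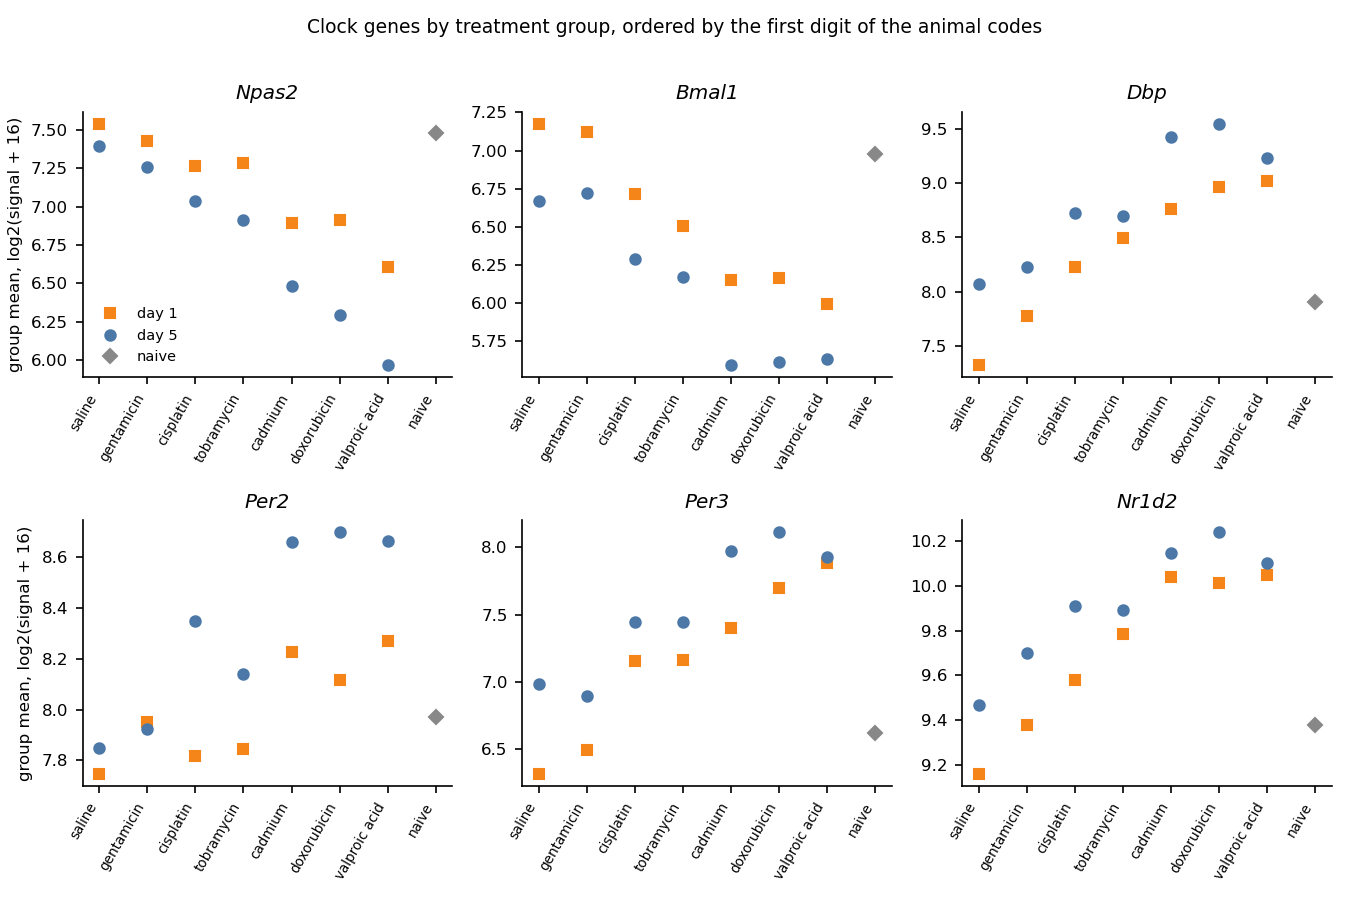
Mean log2(signal + 16) of 6 clock genes in each treatment group at day 1 (squares) and day 5 (circles) and in naive rats (diamonds), ordered by the first digit of the animal codes. Dbp climbs from 7.32 to 9.02 at day 1 along that order, and Npas2 drops from 7.40 to 5.97 at day 5, while the naive rats, last on the axis, are at 7.90 and 7.48.

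Rats dosed for 1 day allow the same comparison with no shared array: 6 valproic acid and 7 saline rats. Saline and valproic acid again hold the first and last digits of the dosed groups. The treatment and that order therefore cannot be told apart at day 1 either. The comparison called 9 genes (0.0788%). Bmal1 (-1.19 ± 0.16, adjusted p = 0.00559), Npas2 (-0.92 ± 0.15, adjusted p = 0.0211), Rnf125 (-0.88 ± 0.13, adjusted p = 0.0129) and the prostaglandin receptor Ptger3 fell. Dbp (1.68 ± 0.17, adjusted p = 0.000488), Per3, Nr1d1, Nr1d2 and the mitotic gene Cdca3 rose. Of the 17 genes called at day 5 on 89 arrays, 16 had the same sign at day 1 and 5 were called there: Npas2, Bmal1, Rnf125, Dbp and Nr1d2. Cyp26b1 was the exception in sign, at 0.30 ± 0.13 on day 1. The share of all genes with the same sign on both days is not given here. Along the code digit the day 1 means of Bmal1 ran from 7.18 with saline through 7.12, 6.72, 6.51, 6.15 and 6.17 to 5.99. On day 1 the median over clock genes was 0.31, and over histone genes -0.03.

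The difference between the days was tested directly on 24 arrays, and no gene passed (0%; 599 at an unadjusted p under 0.05 by limma). Cyp26b1 came closest: its difference moved by -1.29 ± 0.25 from day 1 to day 5 (adjusted p = 0.241). Both sides of that difference moved. From day 1 to day 5 its mean log2 level went from 7.32 to 8.02 with saline and from 7.63 to 7.06 with valproic acid. The saline level of day 5 was the highest of all groups in the series. Next on that side were the endothelial gene Egfl7 (-0.60 ± 0.13), the actin regulator Phactr1 (-0.86 ± 0.21), Fstl1 (-0.51 ± 0.13) and the replication enzyme Top2a (-0.84 ± 0.21). On the other side were Ptger3 (0.79 ± 0.21), Kiaa1549 (0.65 ± 0.18), E2f5 (0.39 ± 0.11), Odf2 (0.52 ± 0.15) and Zfp800 (0.58 ± 0.17), none with an adjusted p under 0.899. For Hsph1 the difference was -0.20 ± 0.16 at day 1 against -0.69 ± 0.11 at day 5, and for Angptl4 -0.03 ± 0.22 against -1.04 ± 0.22; neither gap passed the test.

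The difference was also taken within each sex, in a single fit in which all 11 rats shared the estimate of the spread. The 3 treated against 3 saline males called 13 genes, of which 6 rose (0.0526%) and 7 fell (0.0613%), and the 3 treated against 2 saline females none (0%; 745 at an unadjusted p under 0.05 by limma). Those that fell in males were Npas2 (-2.15), Bmal1 (-1.69), Rnf125 (-1.33), Poteml2, H1f2 (-1.04), Hsph1 (-0.90) and Sox4 (-0.70). In females these were -0.71 for Npas2, -0.29 for Bmal1, -0.78 for Rnf125, 0.01 for Poteml2, -0.32 for H1f2, -0.42 for Hsph1 and -0.09 for Sox4. Those that rose in males included Ddit4 (1.07), Noct (0.88), Tmem252 (0.85), the DNA polymerase Poll (0.99) and Igfbp4, a binding protein of insulin-like growth factors (1.08). In females Ddit4 was at 0.08, Noct at 0.20, Tmem252 at 0.19, Poll at 0.11 and Igfbp4 at -0.53.

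The difference between the sexes was tested directly and no gene passed (0%; 723 at an unadjusted p under 0.05 by limma). The saline females are the pair that holds 1F106, and without 1F105, which leaves a single saline female assumed to vary like the other groups, 10 genes were called. Without 1M6 the count was 1. Igfbp4 came first, with males minus females at 1.61 ± 0.23 (adjusted p = 0.164), followed on that side by the aldo-keto reductase Akr1b10 (1.73 ± 0.30), Cenpx (1.24 ± 0.21), Nat8f3 (1.40 ± 0.24) and Ccdc77 (1.69 ± 0.30). On the other side stood Impa2 (-1.67 ± 0.27; -0.85 in males and 0.82 in females) and Isyna1 (-0.72 ± 0.17; -0.12 and 0.61). IMPA2 releases free inositol from inositol phosphate and ISYNA1 makes that phosphate from glucose phosphate. Ptger3 (-0.88 ± 0.20), LOC100911946 (-1.17 ± 0.27) and the asparaginase Asrgl1 (-0.84 ± 0.20) completed that side. Neither the difference between the days nor that between the sexes was detectable at this number of rats for the genes named.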

How the data were processed

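The authors deposited array intensity per probe set, made with MAS5 per the submitters' processing notes; version and settings were not given in the sources used here. From those intensity values every array was scaled to a common 2% trimmed mean of 181 (91.5 to 352 before), and log2(signal + 16) was taken. Of 31099 probe sets, 20826 carried 1 gene symbol; 9780 with none, 436 with several and 57 control sets were left out. The brightest set stood for each of 14217 genes, and 11415 were tested (signal above the 40th percentile, 33.2, on 5 or more of 89 arrays). With few arrays, their number limits the precision.

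limma 3.58.1 in R 4.3.3 (with the data.table package, version 1.17.8; figures with Python 3.11.15, pandas 2.3.3 and matplotlib 3.10.9) fitted group and sex with a trended, robust prior and Benjamini-Hochberg adjustment over all genes; the fits were tested on simulated data. Each array is 1 rat. Fold values are on the log2(signal + 16) scale, which understates those of dim genes.

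Genes named are the 12 with the smallest p on each side, the histone deacetylases, up to 3 members of each of 47 lists, 9 preset genes, 5 on each side for the differences by day and sex, and genes called on all 89 arrays. The genes called against naive rats or other compounds, those called within a sex and at day 1, the histone list and further list members were added after their values were seen. Members and lists were chosen with earlier results of these data known. Lists were described by counts and medians, with no test. Sequences come from RefSeq tables, which had no Mogat2 entry.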

Additional observations from a re-analysis of the deposited data

Results flagged for a closer look

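A single rat stood far from the rest of its group in 6 of 172 groups of values examined (3.49%), where chance gives about 1 in 20. Saline female 1F105 was low for Cdk2ap2, at 882.9 against 1131 to 1223 in the other 4 saline rats, and low for Ndrg1, at 3662 against 5260 to 5407. The same rat was high for Scg5, at 90.53 against 49.55 to 55. Saline female 1F106, the array with the high 3′ to 5′ ratios, was low for Hsph1, at 1128 against 1459 to 1570. Treated female 7F160 was low for Sh3tc1, at 343.6 against 470.4 to 526.7 in the other 5 treated rats. Treated male 7M60 had a mean macrophage and granulocyte score of 1.13 against -0.508 to 0.0634.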

How the results depend on the processing

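The count of 0 genes between valproic acid and saline at day 5 was 17 on all 89 arrays, 27 without scaling (16 higher, 11 lower), 5 with array quality weights (all lower), 91 with naive controls, 86 with saline and naive controls pooled (30 higher, 56 lower), 1 with 1F104 added to saline and 2 without 1F106 and 7F160. It stayed at 0 with quantile normalization, pseudocounts of 1 and 64, no filter, the 60th percentile filter, all named probe sets, no sex term and a plain prior. Leaving out 1 rat gave 0 to 7 genes. The count of 17 on all 89 arrays became 1 without scaling, 9 without the filter, 6 without 1F106 and 7F160, and 4 to 33 with 1 rat left out. The 91 against naive rats became 140 without scaling, 162 on all 89 arrays and 37 to 497 with 1 rat left out. The 3 against the other compounds became 7 on all 89 arrays and 3 to 5 with 1 rat left out. The 0 for the sexes became 1 on all 89 arrays and 0 to 10 with 1 rat left out; the 0 between the days and the 0 between saline and naive rats did not move under the alternatives run. Lists with a median of 0.1 or more in size numbered 14, and 22 with naive controls or without scaling, which moved the median of all genes by 0.09 against saline. Signs turned with naive controls for Dusp23 (0.24), Pecam1 (0.0825) and Wnt4 (0.0581). Of 322 refits of the 17 genes 143 lost the call, and of 455 refits of 24 genes named against naive rats 66 did. The alternatives to the counts of 17, 91 and 3, and those without 1F106 and 7F160, were chosen after seeing the data. Except where fewer genes or rats entered, the cause was not tested. No paired analysis was possible because every rat has a number of its own that no rat of the other group shares.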
